A study of Mus musculus with 20 samples.

Results

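The 10 genes described here encode transcription factors that hold B cells in their state or turn them toward antibody-secreting plasma cells: Pax5, Ebf1, Spib, Spi1, Bach2, Bcl6, Prdm1, Irf4, Irf8 and Bhlhe41. They were taken by symbol from count tables of 41115 genes, and each symbol matched 1 row. The tables come from 20 poly-A messenger RNA libraries of mouse cells labelled spleen, 10 labelled with LPS, IL4 and TGFb and 10 untreated, from 2 mice with 1 per arm, and with 1 library of each arm at 0 min, 15 min, 30 min, 1 h, 2 h, 3 h, 6 h, 12 h, 24 h and 48 h. LPS is a bacterial cell wall component that activates B cells through a Toll-like receptor, and IL4 and TGFb are cytokines. Strain, age and sex of the 2 mice, the doses, whether the animal or its cells were treated and how cells were kept between times are not stated in the labels. With 1 mouse per arm, the effect of the mixture and the difference between the animals cannot be told apart, and neighbouring times stand in for replicates, so the p-values measure the spread between libraries of neighbouring times only.

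As background, Pax5 and Ebf1 switch on and maintain the genes that define a B cell. Spib and Spi1 (PU.1) are related ETS-family factors that act in B cells with Irf4 or Irf8 as partners, and Spi1 and Irf8 are also central factors of myeloid and dendritic cells. Bach2 and Bcl6 are repressors that hold back plasma cell differentiation, Bcl6 being the defining factor of the germinal center. Prdm1 encodes Blimp-1, the repressor that ends the B cell program in plasma cells, and Pax5, Bach2 and Bcl6 are among the genes known to stand in mutual opposition to it. Irf4 is induced by activation through NF-kB and, at high levels, drives plasma cell differentiation. Bhlhe41 is a basic helix-loop-helix repressor known for its part in B-1a cells.

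Total counts per library ran from 36873155 to 60918651, and 3 counts, taken as the limit that a count of 0 allows, correspond to 0.0464 to 0.0750 CPM (counts scaled to a common TMM-adjusted library total), for counting error only. The 8 B cell markers examined were all present, with summed levels of 1452 to 2162 CPM. T cell markers summed to at most 7.74 CPM with Cd3e at no more than 0.224 CPM, and neutrophil markers to at most 0.300 CPM. Of the plasma cell markers, Igj (334 to 816 CPM), Mzb1 (304 to 435 CPM) and Xbp1 (148 to 290 CPM) were high in every library, whereas Sdc1, the surface marker CD138, stayed at or below 0.178 CPM and Tnfrsf17, the receptor BCMA, at or below 0.151 CPM. Some markers of other cells moved with the arms: in the late phase the macrophage and monocyte sum was 36.0 to 79.1 CPM in stimulated and 14.8 to 21.1 CPM in untreated libraries. That sum came from 2 of 9 markers, Csf1r and Emr1, while Cd14, Lyz2, C1qa and C1qb stayed at or below 0.0925 CPM.

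Promoters of 9 of the 10 genes could be read from RefSeq (GRCm38.p6). Those of Prdm1, Irf4 and Bhlhe41 are shown because these genes differed between the arms in both the middle and the late phase. They are printed 5′ to 3′ on the gene's strand, up to 250 bases before the RefSeq start and without bases that GENCODE vM21 places in an exon of the gene, and the capitals mark matches on either strand to 7 short motifs.
Prdm1, chr10:44458749-44458998, minus strand: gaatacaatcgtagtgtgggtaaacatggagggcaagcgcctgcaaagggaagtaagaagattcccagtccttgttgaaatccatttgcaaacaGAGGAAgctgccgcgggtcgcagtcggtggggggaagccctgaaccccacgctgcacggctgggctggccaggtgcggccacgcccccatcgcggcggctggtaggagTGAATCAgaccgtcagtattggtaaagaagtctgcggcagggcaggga
Irf4, chr13:30748983-30749225, plus strand: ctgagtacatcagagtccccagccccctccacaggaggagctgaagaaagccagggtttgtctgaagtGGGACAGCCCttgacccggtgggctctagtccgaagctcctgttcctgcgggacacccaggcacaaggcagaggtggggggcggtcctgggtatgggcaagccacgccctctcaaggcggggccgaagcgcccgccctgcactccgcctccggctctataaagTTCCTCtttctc
Bhlhe41, chr6:145865559-145865670, minus strand: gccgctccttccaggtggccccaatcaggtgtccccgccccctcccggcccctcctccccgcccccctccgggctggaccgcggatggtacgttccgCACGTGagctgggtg

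The motifs searched were NF-kB (GGGANNNNCC), STAT6 (TTCNNNNGAA), the interferon-stimulated response element (GAAANNGAAA), AP-1 (TGANTCA), an E-box (CACGTG), EBF (CCCNNGGG) and an ETS core (GAGGAA). Of 32851 promoter windows of 250 bases in the same table, they were found in 17.6%, 5.85%, 2.98%, 6.75%, 6.02%, 11.8% and 23.3%, in that order. The Prdm1 window held an AP-1 match starting 48 bases before the start and an ETS match at 156. An NF-kB match lay 182 bases and an ETS match 19 bases before the Irf4 start. The Bhlhe41 window held 1 E-box, the kind of site that its own protein family reads, 153 bases before the start. The Prdm1 start in this table, at 44458748, lies inside the longer span that GENCODE vM21 gives the gene (chr10:44437177-44528501, minus strand). These matches describe letters and were not tested as binding sites.

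To set levels of different genes side by side, CPM was divided by merged exon length (GENCODE vM21). On that scale Spib was highest, with a median of 163 CPM per kb over the 20 libraries (range 121 to 191), followed by Irf4 at 66.2 (57.8 to 156). Next came Bhlhe41 at 30.4 (16.0 to 39.7), Irf8 at 26.5 (8.39 to 38.7), Pax5 at 22.8 (12.5 to 28.2), Ebf1 at 18.1 (6.77 to 22.0) and Spi1 at 13.5 CPM per kb (9.68 to 21.0). The ranges of these 5 overlapped from each gene to the next. Bach2 had a median of 8.15 CPM per kb (3.53 to 10.3), Prdm1 of 3.98 (0.640 to 6.39) and Bcl6 of 0.016. Ranges of neighbours in this order were apart only between Irf4 and Bhlhe41 and between Prdm1 and Bcl6. Spib therefore stood well above its relative Spi1 in each arm, at 121 to 191 against 9.68 to 21.0 CPM per kb.

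**Figure D1:**
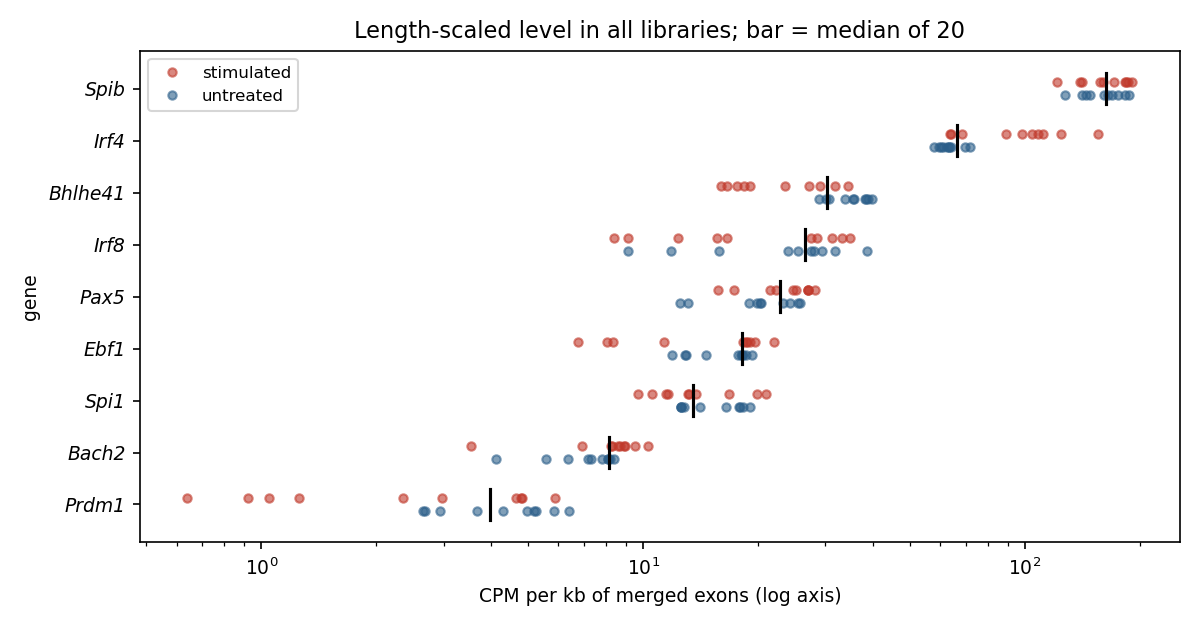
Length-scaled level (CPM per kb of merged exons, log axis) of 9 factors in the 20 libraries, red for stimulated and blue for untreated, with a black bar at the median. Spib lies highest at 121 to 191, and stimulated Prdm1 reaches down to 0.640; Bcl6, with libraries at 0, is left out.

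Bcl6 was near or at the floor of detection. It had 0 to 17 counts per library, between 0 and 0.328 CPM, and was at 0 counts in stimulated cells at 24 h and in untreated cells at 2 h and 12 h, where the depth allows at most 0.0729, 0.0514 and 0.0646 CPM. The gene lies on chr16:23965052-23988852 (minus strand, GRCm38). No fold change is given for it, and it was the only 1 of the 10 that did not reach 1 CPM in at least 3 libraries. The other 9 were tested.

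**Figure D2:**
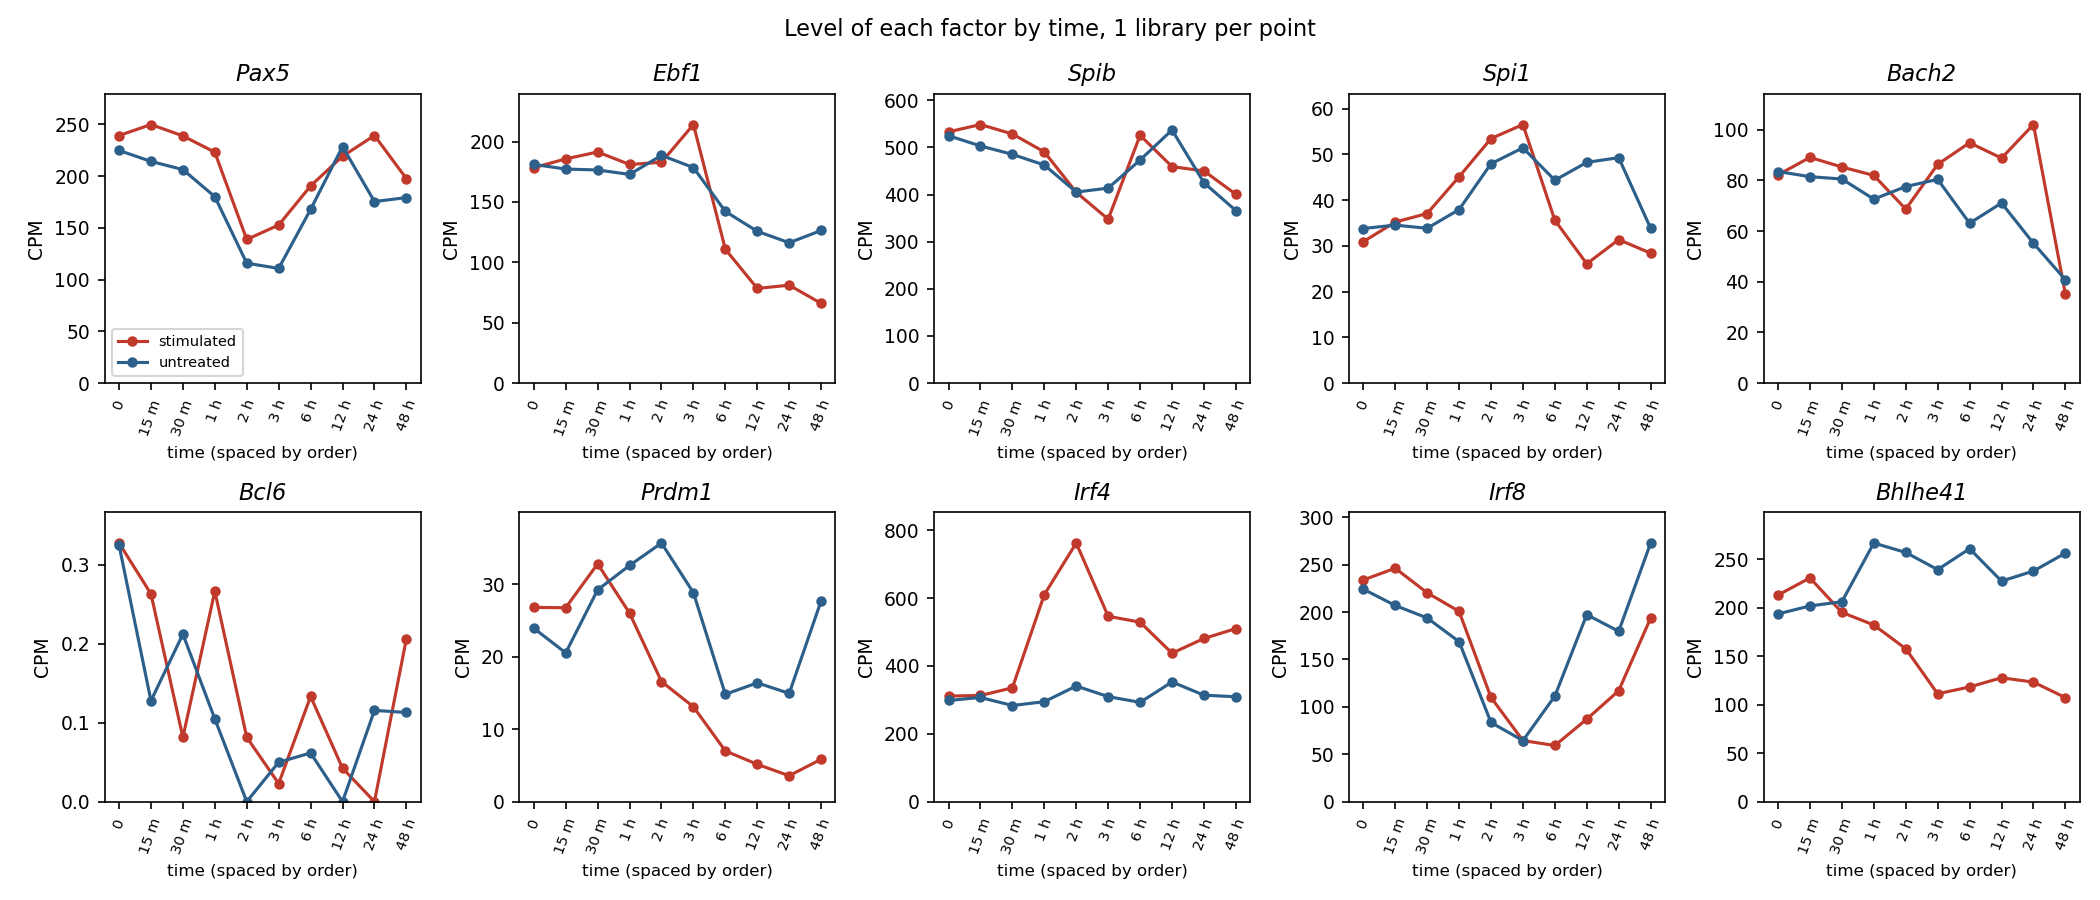
Level (CPM, axes from 0) of each of the 10 factors at 10 times, spaced by order, with 1 library per point, stimulated in red and untreated in blue. The arms lie together at 0 min and part later for Prdm1, Bhlhe41, Irf4 and Ebf1, whereas Pax5, Spib and Irf8 dip at 2 to 3 h in both arms.

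The arms were compared in 3 phases, the early one holding 15 min, 30 min and 1 h, the middle one 2, 3 and 6 h and the late one 12, 24 and 48 h. Libraries of equal time formed a pair, and the test was edgeR's quasi-likelihood F-test with Benjamini-Hochberg adjustment over 12042 genes at 0.05. In the early phase 0 of 9 factors passed, where 2.24% of all genes did, 0 passed with DESeq2, and 2 had an unadjusted p under 0.05 in edgeR, Pax5 (0.25 ± 0.08, p = 0.0104) and Irf4 (0.44 ± 0.16, p = 0.0165). In the middle phase 4 of 9 passed, against 20.5% of all genes. The stimulated level lay above the untreated one for Pax5 and Irf4, and below it for Prdm1 and Bhlhe41. In the late phase 6 of 9 passed, against 36.1% of all genes. Irf4 was higher in stimulated cells, and Prdm1, Bhlhe41, Irf8, Ebf1 and Spi1 were lower. The median log2 fold change of the 9 factors was 0.13 early, -0.03 middle and -0.61 late, beside medians between -0.01 and 0.01 for all genes tested. The difference between the late and the early effect passed for 5 factors, all lower (Prdm1, Irf8, Bhlhe41, Ebf1 and Spi1), against 19.7% of genes. Between the late and the middle effect it passed for 2, both lower (Prdm1 and Ebf1), against 6.74%.

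**Figure D3:**
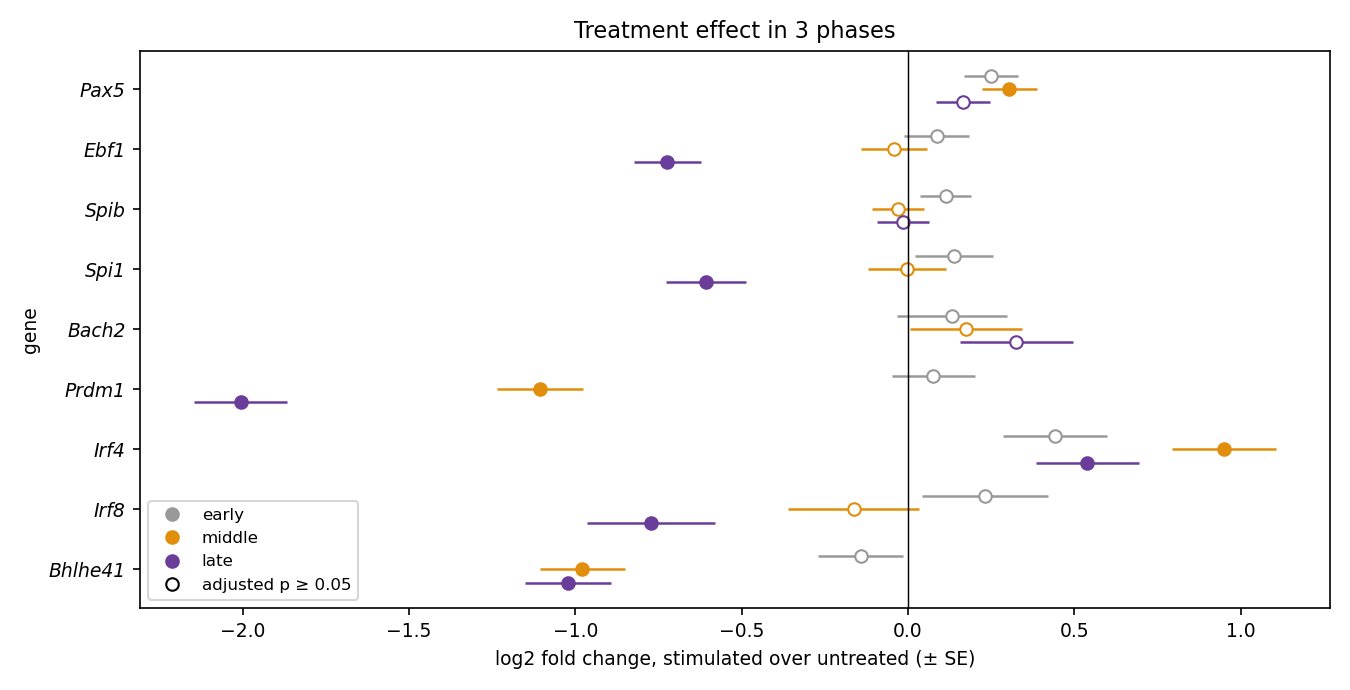
Treatment effect on 9 factors, as log2 fold change of stimulated over untreated with its SE, in the early (grey), middle (orange) and late phase (purple); filled points have an adjusted p under 0.05. Prdm1 moves furthest, to -1.11 and -2.01, while Irf4 lies right of 0 in each phase and no early point is filled.

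The labels also give a sequencing lane, which no time shared between its arms. Lane could not be fitted together with every time as its own level, so a fit with lane and a smooth course of time was added after the data were seen. In that fit Prdm1 alone kept a late difference, of -1.94 (adjusted p = 0.0236), 1.54% of all genes passed, and 0 of 9 factors passed in the middle phase. When each phase was instead measured relative to the 0 min pair, 2 factors passed late, Prdm1 and Bhlhe41, and 0 passed in the middle phase. The share of all genes past the test is not given for the middle phase of either fit. It is also not given for the late phase relative to the 0 min pair. A loss of calls over all genes thus cannot be told apart there from a loss for these factors.

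Prdm1, the Blimp-1 gene, moved most. Its level in stimulated cells was 26.8 CPM at 0 min, 26.7 at 15 min, 32.8 at 30 min and 26.0 at 1 h, then 16.6 at 2 h, 13.1 at 3 h, 6.99 at 6 h, 5.15 at 12 h, 3.57 at 24 h and 5.85 at 48 h. In untreated cells it was 23.9, 20.5, 29.2 and 32.6 CPM at the same 4 first times, 35.7 at 2 h, 28.8 at 3 h, 14.8 at 6 h, 16.4 at 12 h, 14.9 at 24 h and 27.7 at 48 h. All 3 late stimulated libraries lay below all untreated ones, and in the middle phase 2 h in the stimulated arm (16.6) overlapped 6 h in the untreated arm (14.8). The log2 fold change was 0.08 ± 0.12 (SE; adjusted p = 0.816, edgeR) early, -1.11 ± 0.13 (adjusted p = 0.000363) in the middle phase and -2.01 ± 0.14 (adjusted p = 4.72e-06) late, the last a level 4.02-fold lower. Late minus early, the effects differed by -2.08 ± 0.19 (adjusted p = 0.000140, edgeR), and late minus middle by -0.90 ± 0.19 (adjusted p = 0.0194). That last call was lost without 2 h (-0.89, adjusted p = 0.0701), 3 h (-0.90, adjusted p = 0.0808), 24 h (-0.86, adjusted p = 0.0823) or 48 h (-0.76, adjusted p = 0.0584).

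Bhlhe41 was lower in stimulated than in untreated cells in both the middle and the late phase. Stimulated cells had 213 CPM at 0 min, 231 at 15 min, 195 at 30 min, 182 at 1 h, 158 at 2 h, 111 at 3 h, 118 at 6 h, 128 at 12 h, 123 at 24 h and 107 at 48 h. In untreated cells it was 194 CPM at 0 min, 202 at 15 min and 206 at 30 min, and from 1 h on between 228 and 267. The arms did not overlap in the middle or in the late phase. The log2 fold change was -0.98 ± 0.13 (adjusted p = 0.000660, edgeR) in the middle phase and -1.02 ± 0.13 (adjusted p = 0.000141) late, a 2.03-fold lower level. These 2 effects differed by -0.04 ± 0.18 (adjusted p = 0.911), while late minus early gave -0.88 ± 0.18 (adjusted p = 0.00645). Bhlhe41 lies on chr6:145858243-145865558 (minus strand, GRCm38), and 19.0% of its exonic length overlaps an unnamed gene model on the other strand, Gm43909, from which its reads cannot be told apart, since the labels do not say whether counting used strand.

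Irf4 was the only 1 of the 9 tested factors that passed as higher in stimulated cells in the late phase. Stimulated levels were 311 CPM at 0 min, 313 at 15 min, 336 at 30 min, 610.4 at 1 h, 763 at 2 h, 547 at 3 h, 529 at 6 h, 438 at 12 h, 481 at 24 h and 510.2 at 48 h, whereas untreated levels stayed between 283 and 353 CPM at all 10 times. The arms parted at 1 h, with a log2 ratio of 1.05 after 0.24 at 30 min, and were apart at every later time. The fitted log2 fold change was 0.44 ± 0.16 (adjusted p = 0.182, edgeR) in the early phase, which averages the times before and after this step, 0.95 ± 0.16 (adjusted p = 0.00235) in the middle phase and 0.54 ± 0.16 (adjusted p = 0.0192) late. The late call was lost with DESeq2 (0.55, adjusted p = 0.0921) and without 24 h (0.52, adjusted p = 0.0851) or 48 h (0.44, adjusted p = 0.106). The late effect was not shown to differ from the middle one (-0.41 ± 0.22, adjusted p = 0.294). Irf4 lies on chr13:30749226-30766976 (plus strand, GRCm38).

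**Figure D4:**
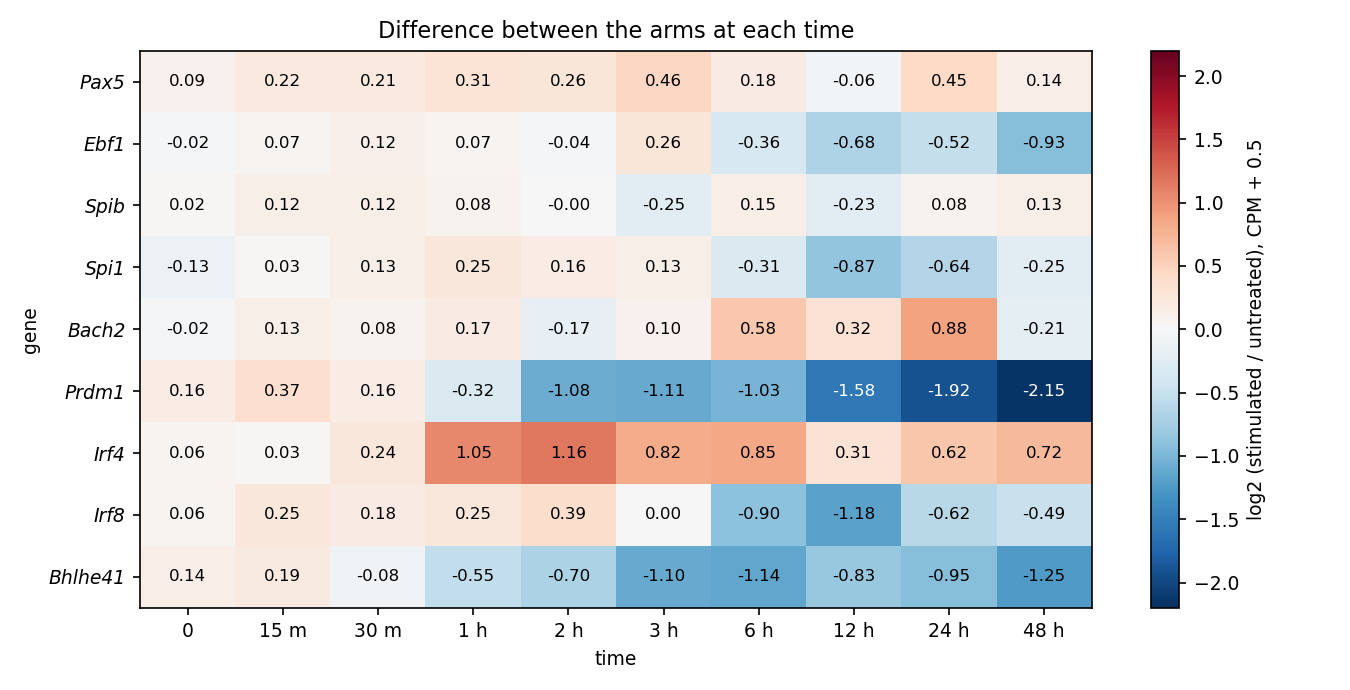
Log2 ratio of stimulated over untreated CPM plus 0.5 for 9 factors at each of the 10 times, 1 library per arm, with no test. Irf4 goes from 0.24 at 30 min to 1.05 at 1 h, Prdm1 reaches -2.15 at 48 h, and at 0 min all 9 lie between -0.13 and 0.16.

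Irf8, a relative of Irf4 that shares its DNA sites and partners, went through a trough in both arms. Stimulated levels were 234 CPM at 0 min, 246 at 15 min, 220.35 at 30 min, 201 at 1 h, 109.9 at 2 h, 64.4 at 3 h, 59.2 at 6 h, 87.0 at 12 h, 117 at 24 h and 194 at 48 h. Untreated levels were 224, 207, 194 and 169 CPM up to 1 h, then 83.5 at 2 h, 64.4 at 3 h, 111 at 6 h, 197 at 12 h, 179.7 at 24 h and 273 at 48 h. Both arms were thus at the same level at 3 h, and the untreated arm was higher from 6 h on. The late log2 fold change was -0.77 ± 0.19 (adjusted p = 0.00928, edgeR), although stimulated cells at 48 h (194) exceeded untreated cells at 24 h (179.7), and the call was lost without 12 h (-0.56, adjusted p = 0.0649). Late minus early, the effects differed by -1.003 ± 0.270 (adjusted p = 0.0243), a call lost without 15 min (-0.996, adjusted p = 0.0741), 30 min (-1.02, adjusted p = 0.0733), 1 h (-0.99, adjusted p = 0.0697), 12 h (-0.80, adjusted p = 0.0652) or 24 h (-1.06, adjusted p = 0.0514). Late minus middle, the difference of -0.61 ± 0.27 (adjusted p = 0.215) passed only without 6 h (-0.96, adjusted p = 0.00769), without a low-count filter or with moved phase limits. Irf8 lies on chr8:120736358-120756694 (plus strand, GRCm38).

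Ebf1, a pioneer factor of the B cell lineage, held its level for 3 h and then fell in both arms, further in stimulated cells. Stimulated levels were 178 to 191 CPM from 0 min to 2 h, 214 at 3 h, 111 at 6 h, 78.4 at 12 h, 81.1 at 24 h and 66.0 at 48 h. Untreated levels were 173 to 189 CPM up to 3 h, 142 at 6 h, 126 at 12 h, 116 at 24 h and 126 at 48 h. The late arms did not overlap, with a log2 fold change of -0.72 ± 0.10 (adjusted p = 0.000256, edgeR), after 0.09 ± 0.10 (adjusted p = 0.729) early and -0.04 ± 0.10 in the middle phase. The late effect differed from the early one by -0.81 ± 0.14 (adjusted p = 0.00252) and from the middle one by -0.68 ± 0.14 (adjusted p = 0.0175), the last lost without 2 h (-0.68, adjusted p = 0.0642) or 3 h (-0.51, adjusted p = 0.0783). Ebf1 lies on chr11:44617317-45008091 (plus strand, GRCm38).

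Pax5, by contrast, dipped and came back in both arms. Stimulated levels were 239, 249.8, 239 and 223 CPM up to 1 h, 139 at 2 h, 153 at 3 h, 190.5 at 6 h, 219 at 12 h, 239 at 24 h and 198 at 48 h. Untreated levels were 225, 214, 206 and 180.1 CPM up to 1 h, 116 at 2 h, 111 at 3 h, 168 at 6 h, 228 at 12 h, 175 at 24 h and 179 at 48 h. Stimulated cells had the higher level at 9 of 10 times, all but 12 h, by a small margin that in the main fit passed only in the middle phase (log2 fold change 0.31 ± 0.08, adjusted p = 0.0234, edgeR). Late it was 0.17 ± 0.08 (adjusted p = 0.137), which passed without 12 h or without a low-count filter. A late effect below 0 like that of Ebf1 was not seen for Pax5 (0.04 to 0.37 over 18 alternatives). The middle call was lost on plain library totals (0.23, adjusted p = 0.0744) and without 2 h (0.32, adjusted p = 0.0663) or 3 h (0.22, adjusted p = 0.196). The gene lies on chr4:44524757-44710487 (minus strand, GRCm38), and gene models on the other strand overlap 7.18% (5730488B01Rik) and 1.41% (Gm12462) of its exons.

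Of the paired ETS-family factors, Spi1 differed late and Spib did not pass in any phase. Spi1 in stimulated cells was at 30.9 CPM at 0 min, 35.2 at 15 min, 37.1 at 30 min, 45.1 at 1 h, 53.5 at 2 h, 56.5 at 3 h, 35.6 at 6 h, 26.1 at 12 h, 31.4 at 24 h and 28.4 at 48 h. In untreated cells it was between 33.8 and 51.5 CPM up to 3 h, and 44.4, 48.3, 49.3 and 33.9 CPM at the 4 times that followed. The late arms did not overlap (log2 fold change -0.61 ± 0.12, adjusted p = 0.00240, edgeR), and the late effect was below the early one by 0.75 on the log2 scale (-0.75 ± 0.17, adjusted p = 0.0103). Late minus middle gave -0.61 ± 0.17 (adjusted p = 0.0546), which passed without 6 h (-0.74, adjusted p = 0.0130) or 48 h (-0.78, adjusted p = 0.0177). It also passed with DESeq2, without a low-count filter or with moved phase limits. Because Spi1 and Irf8 are also factors of myeloid and dendritic cells, 2 marker sums belong beside them. The late macrophage and monocyte sum was higher in stimulated cells (36.0 to 79.1 against 14.8 to 21.1 CPM). So was the dendritic cell sum (87.8 to 142 against 60.1 to 67.1 CPM), which came almost wholly from Bst2, Zbtb46 and Flt3. Itgax stayed at no more than 0.593 CPM. Siglech and Xcr1, at no more than 1.18 and 2.70 CPM, were lower in stimulated cells at each late time. The part of such cells in these results was not tested. In bulk libraries fewer cells of a type and less RNA per cell cannot be told apart. Spi1 lies on chr2:91082390-91115756 (plus strand, GRCm38).

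Spib levels ran from 348 CPM (3 h) to 548 CPM (15 min) in stimulated cells, with a median of 475, and from 366 CPM (48 h) to 537 CPM (12 h) in untreated cells, with a median of 468. The late log2 fold change was -0.01 ± 0.08 (adjusted p = 0.901, edgeR). Bach2 stayed at 68.7 to 102 CPM in stimulated cells up to 24 h and was at 35.1 at 48 h. Untreated Bach2 was 72.6 to 83.5 CPM up to 3 h, 63.1 at 6 h, 71.1 at 12 h, 55.2 at 24 h and 40.8 at 48 h. Each arm was thus lowest at 48 h. Stimulated cells were higher at 6, 12 and 24 h and lower at 48 h, and the late log2 fold change of 0.33 ± 0.17 (adjusted p = 0.159, edgeR) passed only when 48 h was left out, the phase limits were moved or no low-count filter was used (0.58, adjusted p = 0.0190; 0.39, adjusted p = 0.0405; 0.35, adjusted p = 2.59e-05). Without the filter the effect was close to the main one, and the reason for its far smaller p was not tested. Spib lies on chr7:44525993-44532071 (minus strand) and Bach2 on chr4:32238804-32586108 (plus strand, GRCm38), where an antisense gene, Bach2os, overlaps 5.40% of its exons.

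Change over time was compared within each arm in a fit of 20 libraries and 12139 genes. In stimulated cells 5 of 9 factors changed from the early to the middle phase, where 41.3% of genes passed: Irf4 rose (0.55 ± 0.20, adjusted p = 0.0365, edgeR), and Irf8 (-1.51), Prdm1 (-1.22), Bhlhe41 (-0.65) and Pax5 (-0.56) fell. From the early to the late phase 5 of 9 fell, against 54.9% of genes: Prdm1 (-2.55 ± 0.36, adjusted p = 7.06e-05), a 5.85-fold drop, Ebf1 (-1.31 ± 0.17, adjusted p = 4.66e-05), Bhlhe41 (-0.76), Irf8 (-0.75) and Spi1 (-0.45). The middle rise of Irf4 was lost without 15 min, 30 min, 2 h, 3 h or 24 h (0.36 to 0.62, adjusted p from 0.0530 to 0.180) and the middle fall of Prdm1 without 30 min (-1.11, adjusted p = 0.0568), while Spib (-0.47, adjusted p = 0.0124) and Spi1 (0.49, adjusted p = 0.0190) passed there without 6 h. The late fall of Irf8 was lost without 15 min, 30 min, 1 h, 12 h or 24 h (-0.84 to -0.52, adjusted p from 0.0528 to 0.169), and that of Spi1 without 1 h or 12 h (-0.36 and -0.39, adjusted p = 0.124 and 0.117). Without 1 h, which held the highest early level, Irf4 also passed late (0.53, adjusted p = 0.0103). In untreated cells 2 of 9 fell from the early to the middle phase, against 25.4% of genes, namely Irf8 (-1.14 ± 0.28, adjusted p = 0.0115) and Pax5 (-0.61 ± 0.16, adjusted p = 0.0137); both calls were lost without 15 min (adjusted p = 0.0587 and 0.0679), 30 min (0.0634 and 0.0702) or 3 h (0.0741 and 0.0900), while Spi1 passed there without 6 h (0.49, adjusted p = 0.0294) or 48 h (0.43, adjusted p = 0.0382). From the early to the late phase 1 of 9 fell, against 42.6% of genes, Ebf1 by 0.52 ± 0.17 (adjusted p = 0.0250), a call that was lost without 15 min, 30 min, 1 h, 12 h or 24 h (adjusted p from 0.0565 to 0.0933). Without 48 h, a late rise of Spi1 in untreated cells also passed (0.46, adjusted p = 0.0344). Irf8 and Pax5 thus fell from early to middle in untreated as well as in stimulated cells, whereas the untreated late change of Prdm1 was -0.48 ± 0.34 (adjusted p = 0.260; -0.81, adjusted p = 0.0802, without 48 h and -0.31, adjusted p = 0.543, without 24 h) and that of Bhlhe41 was 0.10 ± 0.14 (adjusted p = 0.583).

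Ratios of opposing factors within a library are given as log2 of CPM plus 0.5 with no test and without length scaling, so only differences between libraries can be read from them; a pseudocount of 2 moves the difference between the arms for Pax5 over Prdm1 at 24 h from 2.37 to 2.05. Pax5 over Prdm1 was 3.13 in stimulated and 3.21 in untreated cells at 0 min, and 5.28, 5.88 and 4.96 against 3.76, 3.51 and 2.67 at 12, 24 and 48 h. The stimulated arm was higher at each of the 8 times from 30 min on, by 0.05 at 30 min and 2.37 at 24 h. Bach2 over Prdm1 went from 1.60 at 0 min to 4.65 at 24 h and 2.49 at 48 h in stimulated cells, and from 1.78 to 1.85 and 0.55 in untreated cells. Both ratios share Prdm1, which was lower in stimulated cells late, while neither Pax5 nor Bach2 passed the late test in the main fit. Irf8 over Irf4 was -0.41 in both arms at 0 min and lowest in stimulated cells at 6 h (-3.15, against -1.39 untreated), with -1.40 against -0.18 at 48 h. Spib over Spi1 was lowest at 3 h in both arms (2.61 and 2.99) and higher in stimulated cells from 6 h on, by 0.38 to 0.73.

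**Figure D5:**
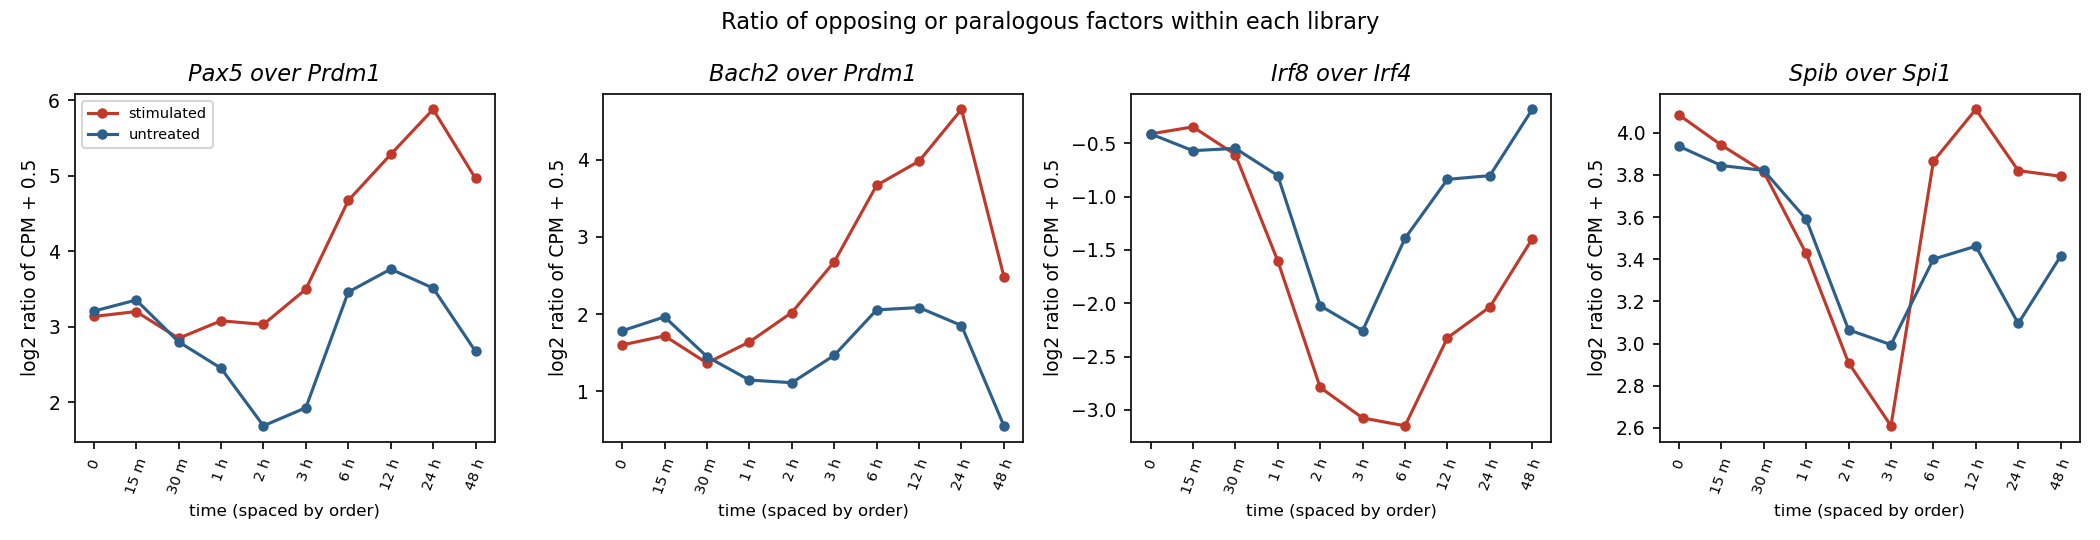
Log2 ratio (of CPM plus 0.5) of 4 pairs of factors within each library at 10 times, spaced by order, stimulated in red and untreated in blue; axes do not start at 0. Pax5 over Prdm1 and Bach2 over Prdm1 peak in stimulated cells at 24 h (5.88 and 4.65), while Irf8 over Irf4 is lowest there at 6 h (-3.15).

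The genes that these factors act on or beside were described from 5 lists, by counts past the same test. No gene of any list passed in the early phase, and the counts below stand beside 20.5% of all genes past the test in the middle phase and 36.1% late. Of 20 B cell identity genes 19 were tested. In stimulated against untreated cells, 6 were higher and 3 lower in the middle phase, and 6 higher and 6 lower late. The late median log2 fold change was 0.03 beside -0.00 for all genes. Those furthest up late were Fcer2a, the low-affinity IgE receptor CD23 (4.63 ± 0.45, adjusted p = 2.55e-05, edgeR), Ciita, the master activator of MHC class II genes (1.73 ± 0.12), and the costimulatory receptor Cd40 (0.93). Furthest down were Cd22, an inhibitory co-receptor (-2.51 ± 0.19, adjusted p = 7.56e-06), Bank1 (-1.53) and Vpreb3 (-1.25). Cd22 was at 499.6 CPM at 0 min and 31.0 CPM at 24 h in stimulated cells, against 524 and 243 CPM in untreated cells. Cd79a, a signaling chain of the antigen receptor and a known Pax5 target, did not pass late (0.03, adjusted p = 0.793).

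Of 20 plasma cell and secretory genes 18 were tested. In the middle phase 1 was higher and 3 were lower in stimulated cells (20.5% of all genes passed). Late, 4 were higher and 7 lower (36.1%), with a median of 0.07. Late, Slamf7 (1.00 ± 0.20, adjusted p = 0.00254, edgeR), Fam46c (0.58) and Sec11c, a signal peptidase subunit (0.26), were furthest up, and Cd93 (-1.28 ± 0.09, adjusted p = 4.29e-06), Creb3l2 (-0.65) and Txndc5 (-0.46) furthest down. Xbp1, the factor of the secretory stress response, was lower in stimulated cells late by 0.38 on the log2 scale (adjusted p = 0.00782, edgeR). Igj, the joining chain of secreted antibody, was lower by 0.43 (adjusted p = 0.0395), but its late arms overlapped. In order of time, Igj was at 355, 550 and 712 CPM in stimulated and 624, 816 and 656 CPM in untreated cells, thus higher in stimulated cells at the last time. Mzb1 was at 360, 404 and 435 against 369, 397 and 356 CPM. Both Xbp1 and Igj were picked after their values were seen. Of 11 germinal center and switching genes 9 were tested, with 2 up and 3 down in the middle phase and 2 up and 4 down late (median -0.12). Furthest up late was Fas, a death receptor (3.65 ± 0.31, adjusted p = 1.11e-05), and furthest down were Rgs13 (-1.52), S1pr2 (-0.92) and Mef2b (-0.25).

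Of 29 other transcription factors of the network 28 were tested. In stimulated cells 6 were higher and 7 lower in the middle phase, and 5 higher and 11 lower late (median -0.12). Furthest up late were Id2, an inhibitor of E proteins (1.55 ± 0.21, adjusted p = 0.000208, edgeR), Stat3 (0.96) and Batf, an AP-1 family partner of Irf4 (0.85). Hhex, a homeobox factor, was furthest down (-1.99 ± 0.18, adjusted p = 1.63e-05), with 12.0 to 12.3 CPM in stimulated and 40.4 to 54.7 CPM in untreated cells late, followed by Lmo2 (-1.02) and Ets1 (-0.88). Of 18 family relatives of the 10 factors 11 were tested, with 1 up and 1 down in the middle phase (Irf5 0.70, Irf2 -0.55; 20.5% of all genes passed) and 3 up and 2 down late (36.1%; median 0.10). Higher in stimulated cells late were Bhlhe40 (0.64 ± 0.17, adjusted p = 0.0139, edgeR), Irf5 (0.33) and Prdm4 (0.17). Bach1 (-0.44) and Irf3 (-0.33) were lower. Bhlhe40, the closest relative of Bhlhe41, thus had the opposite sign to it, with 182, 243 and 249 CPM in stimulated against 164, 146 and 120.3 CPM in untreated cells at 12, 24 and 48 h.

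As a description over the 20 libraries, which share their time points and scaling, the genes with the courses most like each factor were ranked by Pearson's r of log2(CPM + 0.5) among 9582 genes with a mean of at least 5 CPM. Prdm1 was nearest to Cd22 (r = 0.95), Gpr124 (0.95) and Entpd1 (0.95), and Bhlhe41 to Gpr34 (0.93), Arid3b (0.91) and Hhex (0.91). For Irf4 they were Icam1 (0.95), Nfkbia (0.92) and Rnf24 (0.91). Nfkbia encodes an inhibitor of NF-kB, and Icam1 an adhesion molecule. Irf8 was nearest to Ifi203 (0.97) and Malt1 (0.95), Ebf1 to Eif2ak1 (0.95), Aldh2 (0.95) and Asph (0.95), and Pax5 to Haus3 (0.91), Mtrf1 (0.90) and Lrch1 (0.90). The nearest genes were less close for Spi1 (Snx9 0.89, Lrp10 0.88, Arhgap21 0.88), Spib (Mtrr 0.87, Cipc 0.86) and Bach2 (Exosc4 0.88, Rplp2 0.84, Eogt 0.84). The order depended on the measure. By Spearman's rho, Cd22 ranked 53 for Prdm1 (0.80), Asph 331 for Ebf1 (0.75) and Eogt 184 for Bach2 (0.53). Eif2ak1 kept rank 1 for Ebf1 (0.91). Bcl6 is left out of this description, since its counts lie near or at the floor.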

How the data were processed

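Poly-A messenger RNA (TruSeq) was measured in 20 libraries, 1 per arm and time. The authors deposited counts per gene; the submitters' processing notes name STAR, HTSeq and the build GRCm38.p3 (mm10), without versions or strand setting. Members and gene lists were chosen with earlier results of these data known. Here, edgeR 4.0.16 (R 4.3.3; TMM scaling, quasi-likelihood F-test, Benjamini-Hochberg, threshold 0.05) tested genes with at least 1 CPM in 3 libraries: 18 libraries after 0 min with time as a factor and treatment by phase, and all 20 in 8 groups of arm by phase. The SE is the log2 fold change over the square root of F. The script was tested on simulated data. All 10 factors are named, and of each list up to 3 genes furthest up and down among those past the late test; some items are not reported here. The depth, 36873155 to 60918651 counts, gives counting error only. Alternatives were RLE size factors, library totals, DESeq2 1.42.0, other filters (none, or 5 CPM), a pseudocount of 2, lane, the 0 min pair as reference, moved phase limits, leaving out each time and, added after seeing the data, a spline of time with or without lane.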

Additional observations from a re-analysis of the deposited data

Results flagged for a closer look

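For 5 of 9 factors, against 19.7% of all genes, the treatment effect differed between the late and the early phase by a test of that difference (edgeR's quasi-likelihood F-test, adjusted over all genes). They were Prdm1 by -2.08 (adjusted p = 0.000140), Irf8 by -1.003 (adjusted p = 0.0243), Bhlhe41 by -0.88 (adjusted p = 0.00645), Ebf1 by -0.81 (adjusted p = 0.00252) and Spi1 by -0.75 (adjusted p = 0.0103) on the log2 scale. The stimulated arm was lower than the untreated one at 12, 24 and 48 h for each of the 5.

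Bach2 in stimulated cells at 48 h (35.1 CPM) stood apart from the other 9 stimulated libraries, its gap to the next taking 0.628 of the arm's range on the scale of log2(CPM + 0.5). The limit used is passed by chance in about 1 in 20 groups of like samples, which libraries of different times are not. The untreated library of 48 h was also the lowest of its arm, at 40.8 CPM.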

How the results depend on the processing

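Counts of factors past the test, out of 9, moved by more than 1.5 times as follows. They are not set beside the share of all genes past the test in each setting. They therefore describe the settings and are not results about the factors. Without a low-count filter, 3 passed early (Pax5, Irf4 and Irf8, all higher) and 5 for late minus middle. Relative to the 0 min pair, 0 passed in the middle phase and 2 late. With lane as a factor, which could be fitted only for differences between phases and within arms, 0 passed for late minus middle, 3 for stimulated and 1 for untreated middle against early. With moved phase limits the last 2 became 1 and 0. With a spline of time, 3 passed for late minus early and 1 for late minus middle; with a spline and lane, 0 in the middle phase, 1 late, 1 for late minus early and 0 for late minus middle. Leaving out each time gave 0 to 4 for late minus middle, 3 to 7 for stimulated middle, 3 to 5 for stimulated late, 0 to 3 for untreated middle and 0 to 2 for untreated late against early. For the results on single factors that passed in at least 1 setting, 754 values were obtained under an alternative, of which 639 kept direction and side of the threshold, 86 lost it, 27 gained it and 2 turned sign: Irf8 late minus middle (0.052 with a spline and lane) and Irf4 late against early in stimulated cells (-0.012 without 15 min, 0.53 without 1 h). The 37 results that passed in no setting had 632 values under an alternative, 57 of them, in 25 results, with the other sign. The late effect on Prdm1 kept its call in all 18 alternatives, from -2.17 to -1.77 (largest adjusted p 0.0236). The causes were not tested. Libraries were paired by time, and no pairing by replicate number was possible because the labels give none. Depth limits Bcl6 only.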
